A study of Rattus norvegicus with 12 samples.

Results

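The genes described here encode the complement and coagulation proteins that the liver secretes into plasma, together with the proteases and inhibitors of fibrinolysis. They were taken by symbol from a list of 37 genes, of which 36 had a row among the 33744 genes of the count table and 35 were among the 13687 genes that passed the filter on low counts. Of the tested genes, 15 belong to complement and 20 to coagulation and fibrinolysis. Mbl2 was not found by its symbol and was not analysed here, and Cfb was found but not tested, as described below. The libraries come from livers of male Sprague Dawley rats, 6 to 8 weeks old, in a model of donation after circulatory death (DCD). All donors were heparinized and all livers had 30 min of warm ischemia in situ, so no group here is a liver without ischemia. Nothing more was done to the WI 30 min livers, while the SCS 4 h livers were kept for 4 h in static cold storage (SCS) in histidine-tryptophan-ketoglutarate solution. The HMP 1 h livers had 3 h of cold storage and then 1 h of hypothermic machine perfusion (HMP) at 4 °C through the portal vein, without oxygenation. The HOPE 1 h livers had the same storage and perfusion with a perfusate oxygenated to 60 to 80 kPa (hypothermic oxygenated machine perfusion, HOPE). Each group had 3 livers with 1 library each, and values per liver are given below in the order of livers 1, 2 and 3, as after WI, SCS, HMP or HOPE.

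Hepatocytes make most of the complement and clotting proteins of plasma and secrete them as inactive precursors. Complement is started by the classical pathway (C1r and C1s, then C4 and C2) or by the lectin pathway (mannose-binding lectin with the proteases encoded by Masp1 and Masp2), both converge on C3, and C5 to C9 then form the pore of the membrane attack complex. In coagulation a cascade of proteases, several of them dependent on vitamin K, ends in thrombin, which turns fibrinogen into fibrin, while antithrombin and protein C restrain it and plasmin dissolves the clot. Many of these genes, the 3 fibrinogen genes in particular, are known acute-phase genes that respond to interleukin-6 through STAT3, and they are also driven by the hepatocyte factors HNF1 and C/EBP.

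Total counts per liver were 15262961 to 18343167, and counting error is therefore small for nearly all of these genes. Levels per liver are given as CPM, counts scaled to the normalized library total. Pearson's r of log2 CPM between livers, across genes, ranged from 0.937 to 0.973 within groups and from 0.936 to 0.971 between groups. HMP 1 h liver 1 and HOPE 1 h liver 3 stood apart from the other 10 livers. Their score of markers of non-parenchymal cells, which is the mean log2 CPM of the markers after centring each gene on the 12 livers, was 0.995 and 0.849, against -0.440 to 0.075 in the others. HMP 1 h liver 1 also had 18.7% of its counts on the mitochondrial chromosome, against 4.79% to 10.2% elsewhere. Hepatocyte markers were abundant in every liver, with a summed level of 179400 to 264300 CPM over the list and 9.37% to 14.3% of counts on albumin alone.

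Promoter sequences are shown for the 3 fibrinogen genes, C1r and C6, since the fibrinogen genes and C1r varied together across livers and C6 had the largest difference between perfused and unperfused livers. They are the 250 bases before the annotated start in RefSeq (GRCr8, a different build from the Rnor_6.0 of the counts), written 5′ to 3′ on the strand of the gene, with capitals for the motif CTGGGAA, the core of interleukin-6 response elements. They lie at chr2:170652833-170653082 (plus strand) for Fgg, chr2:170671919-170672168 (plus) for Fga, chr2:170700876-170701125 (minus) for Fgb, chr4:159098763-159099012 (plus) for C1r and chr2:55573383-55573632 (plus) for C6.
Fgg: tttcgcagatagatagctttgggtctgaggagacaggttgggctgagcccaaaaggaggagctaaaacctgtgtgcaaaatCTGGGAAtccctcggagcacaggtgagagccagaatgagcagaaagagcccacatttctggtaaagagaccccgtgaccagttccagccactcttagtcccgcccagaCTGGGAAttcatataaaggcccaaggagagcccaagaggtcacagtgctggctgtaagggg
Fga: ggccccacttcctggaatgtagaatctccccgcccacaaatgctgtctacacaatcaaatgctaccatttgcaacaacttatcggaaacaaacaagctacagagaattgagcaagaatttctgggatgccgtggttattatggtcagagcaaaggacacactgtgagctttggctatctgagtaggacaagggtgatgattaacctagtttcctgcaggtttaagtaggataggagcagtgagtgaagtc
Fgb: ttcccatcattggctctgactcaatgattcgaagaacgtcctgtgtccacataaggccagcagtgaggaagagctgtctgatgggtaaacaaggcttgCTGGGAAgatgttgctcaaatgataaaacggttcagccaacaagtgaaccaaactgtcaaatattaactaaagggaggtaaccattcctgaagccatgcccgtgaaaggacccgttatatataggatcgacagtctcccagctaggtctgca
C1r: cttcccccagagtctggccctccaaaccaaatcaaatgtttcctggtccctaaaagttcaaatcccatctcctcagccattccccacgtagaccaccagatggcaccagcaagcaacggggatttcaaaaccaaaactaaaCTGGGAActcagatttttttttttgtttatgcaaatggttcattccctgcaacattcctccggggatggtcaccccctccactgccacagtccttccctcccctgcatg
C6: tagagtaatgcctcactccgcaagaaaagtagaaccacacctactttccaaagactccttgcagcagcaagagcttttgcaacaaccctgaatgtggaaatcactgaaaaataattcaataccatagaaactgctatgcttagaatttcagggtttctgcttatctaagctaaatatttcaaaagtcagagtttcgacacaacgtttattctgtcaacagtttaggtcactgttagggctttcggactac

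The Fgg promoter held the core CTGGGAA in 2 places, beginning 169 and 61 bases before the start, Fgb held it 152 bases and C1r 109 bases before the start, and the windows of Fga and C6 held none. RefSeq promoters were matched for 28 of the 35 tested genes. On either strand, CTGGGAA was found in 8 of these 28 (28.6%; C1r, C3, F9, Fgb, Fgg, Kng1, Plg and Serpinc1), and in 9.56% of all 33469 promoters in the table. The STAT palindrome TTCNNNGAA, which can overlap CTGGGAA, was in 17.9% of the 28 and 7.67% of all. The C/EBP-like motif TTGCNNAA was in 42.9% and 9.22%, and the HNF1-type motif GTTAAT in 32.1% and 6.45%. TATAAA was in 1 of the 28 (Fgg; 3.57%) and in 12.9% of all. These shares were not tested against each other. A match states only that these letters are present in the window.

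Levels of different genes were compared as FPKM, which scale fragments by gene length and library total. Fgg, the fibrinogen gamma chain, had the highest mean level, 2749 ± 741 FPKM (mean ± SD over 12 livers), and it was followed by C3, the central component of complement, at 2143 ± 435, Fga at 2113 ± 673 and Fgb at 1656 ± 561. The livers overlapped between each of these neighbours in the order, with ranges of 1971 to 4417 for Fgg, 1585 to 3167 for C3, 1394 to 3542 for Fga and 992 to 2949 for Fgb. Prothrombin (F2) had 1247 ± 169 FPKM and plasminogen (Plg) 1002 ± 159, and next came Serpinc1, which encodes antithrombin, at 578 ± 67.2. The ranges of Plg (869 to 1262) and Serpinc1 (471 to 678) did not overlap. At the low end stood F5 (46.7 ± 7.54), Masp1 (45.0 ± 7.66), F7 (42.4 ± 5.96), C6 (35.8 ± 13.6) and C2 (14.6 ± 1.66), whose level is uncertain as described below. Thus prothrombin mRNA stood far above that of factor VII, the protease that starts the extrinsic pathway. Of the 6 terminal complement genes in the list described here, C6 had the lowest level and C9 the highest, at 393 ± 91.2. C7, a terminal complement gene outside that list, had a lower mean CPM than C6, a unit not scaled by gene length. The means of C7 and C6 were 23.85 and 141.3 CPM in perfused livers and 15.65 and 74.27 CPM in unperfused livers.

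**Figure D1:**
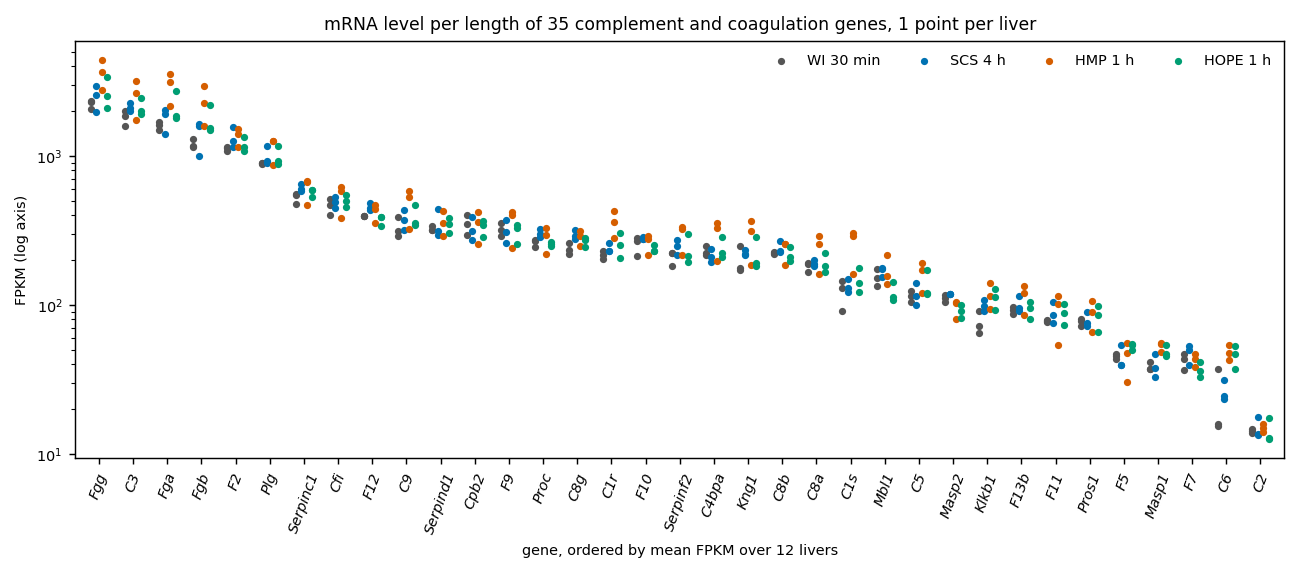
Level per length of the 35 tested genes (FPKM, log axis) in each of the 12 livers, with genes ordered by their mean and livers coloured by group. Fgg leads and C2 is last, and neighbours in the order mostly overlap. The level of C2 is uncertain because its row overlaps a Cfb row on the same strand.

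Cfb, complement factor B of the alternative pathway, had 2 rows with 22 and 0 counts over the 12 livers. Its longer row (chr20:4536203-4561066, Rnor_6.0) overlaps C2 (chr20:4542340-4561152) on the same strand. It also contains the other Cfb row (chr20:4536212-4542073) on that strand. Reads that fall on overlapping rows could be lost or given to either row, so the levels of Cfb and of C2 (7685 counts over all livers) are both uncertain. Of the other tested genes, C5, C8g, Serpind1 and Cpb2 overlap a gene on the opposite strand, and the sources used here do not state whether the counting used strand.

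The 35 genes together took 3.88% to 6.02% of all counts. Their share was 4.14% ± 0.22 (SD, n = 3) after WI, 4.55% ± 0.22 after SCS, 5.42% ± 0.99 after HMP and 4.68% ± 0.62 after HOPE. HMP 1 h liver 1 had 4.28%, within the range of unperfused livers, whereas HMP 1 h livers 2 and 3 had 6.02% and 5.95%, the highest of the 12 livers. These shares are of all counts, mitochondrial counts included. Mitochondrial counts made up 18.7% in HMP 1 h liver 1, against 5.07% to 6.02% in unperfused livers, so its share is not on an equal base with theirs.

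No gene of the 35 was called at an adjusted p under 0.05 in any of the 7 comparisons made with edgeR's quasi-likelihood test, adjusted by Benjamini-Hochberg over 13687 genes. The background was equally empty in the 6 comparisons of pairs of groups (0.0% of all tested genes called), and 1.02% of all genes, 140 in number, were called between perfused livers (6 livers, of HMP 1 h or HOPE 1 h) and unperfused livers (6 livers, of WI 30 min or SCS 4 h). The comparisons share livers and are not independent of each other.

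In SCS 4 h against WI 30 min, which sets 4 h of static storage beside warm ischemia alone, 31 of the 35 genes had a log2 fold change above 0 (52.3% of all genes did), with a median of 0.163 (0.014 over all genes). The median was 0.071 to 0.194 when each liver was left out in turn, lowest without SCS 4 h liver 3. At an unadjusted p under 0.05, 2 genes were higher and 0 lower, against 2.77% and 2.0% of all genes, and DESeq2 called 0 (0.11% of all genes). The groups did not overlap for 10 genes that were higher in SCS 4 h (C1r, C3, C8b, C8g, Masp2, F2, F12, Klkb1, Proc and Serpinc1) and for 0 that were lower, against 7.13% and 5.86% of all genes.

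In HMP 1 h against WI 30 min, 32 of 35 genes were above 0 (53.4% of all genes), with a median of 0.275 (0.029 over all genes). At an unadjusted p under 0.05, 11 were higher and 0 lower, beside 7.23% and 6.6% of all genes. DESeq2, another count model, called 5 of the 35 (C1r, C1s, C6, Fga and Fgb, all higher) and 2.85% of all genes. Livers did not overlap for 9 genes that were higher (C1r, C1s, C6, Masp1, F2, Klkb1, Fga, Fgb and Fgg) and 1 that was lower (Masp2), against 7.57% and 8.45% of all genes. With each liver left out in turn the median was 0.181 (without HMP 1 h liver 2) to 0.417 (without HMP 1 h liver 1). Without HMP 1 h liver 1 and HOPE 1 h liver 3 together it was 0.417 and edgeR called 2, C1r and C1s. Over all genes 46 of 13733 were called there.

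In HOPE 1 h against WI 30 min, 26 of 35 were above 0 (53.3% of all genes), with a median of 0.141 (0.023 over all genes). Here 3 were higher and 0 lower at an unadjusted p under 0.05, beside 4.41% and 4.16% of all genes, and DESeq2 called 0 (0.709% of all genes). C6, Masp1, F5, Klkb1, Fga and Fgb did not overlap and were higher, and Masp2 did not overlap and was lower (8.77% and 7.42% of all genes). The median rested on single livers: it was 0.043 without HOPE 1 h liver 1, close to that of all genes, 0.244 without HOPE 1 h liver 3 and 0.233 without the same pair of livers.

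Against SCS 4 h, the time-matched storage, HMP 1 h had 24 of 35 genes above 0 (54.2% of all genes) and a median of 0.160 (0.037 over all genes). This median was 0.044 without HMP 1 h liver 2, 0.089 without HMP 1 h liver 3 and 0.087 without SCS 4 h liver 1, but 0.34 without HMP 1 h liver 1 and 0.341 without the pair of livers that stood apart. At an unadjusted p under 0.05, 7 were higher and 1 lower (5.93% and 8.56% of all genes), and DESeq2 called 3, C1r, C1s and Fga (3.16% of all genes). C1r, C1s, C6, Masp1 and Fga were higher without overlap and Masp2 was lower without overlap (7.29% and 10.6% of all genes). HOPE 1 h against SCS 4 h had 18 of 35 above 0 (55.1% of all genes) and a median of 0.005 (0.038 over all genes), which was 0.097 without the pair. That median was -0.093 (without HOPE 1 h liver 1) to 0.111 (without SCS 4 h liver 3) and was also below 0 without SCS 4 h liver 1 or 2. Here 2 were higher and 3 lower at an unadjusted p under 0.05 (4.04% and 6.84% of all genes), DESeq2 called 0 (1.49% of all genes), C6 was higher without overlap and Mbl1, Masp2, F10, F12 and Proc were lower without overlap (8.97% and 10.3% of all genes).

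Between perfused and unperfused livers, 28 of 35 genes were above 0 (54.7% of all genes), with a median of 0.121 (0.030 over all genes), and without HMP 1 h liver 1 and HOPE 1 h liver 3 the median was 0.287. With 1 liver left out it was 0.085 (without HMP 1 h liver 3) to 0.228 (without HMP 1 h liver 1), and 0.182 without SCS 4 h liver 3. At an unadjusted p under 0.05, 9 genes were higher and 1 lower, beside 8.82% and 8.85% of all genes. The lowest adjusted p-values in edgeR were 0.0590 for C6, 0.0926 for Masp1, 0.121 for C1s and 0.122 for Fga. DESeq2 called 7 of the 35 (C1r, C1s, C6, Fga, Fgb and Masp1 higher, Masp2 lower) and 5.53% of all genes. With 6 livers on each side, C6 was higher and Masp2 lower in every perfused liver than in every unperfused liver, which held for 0.621% and 1.21% of all genes.

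**Figure D2:**
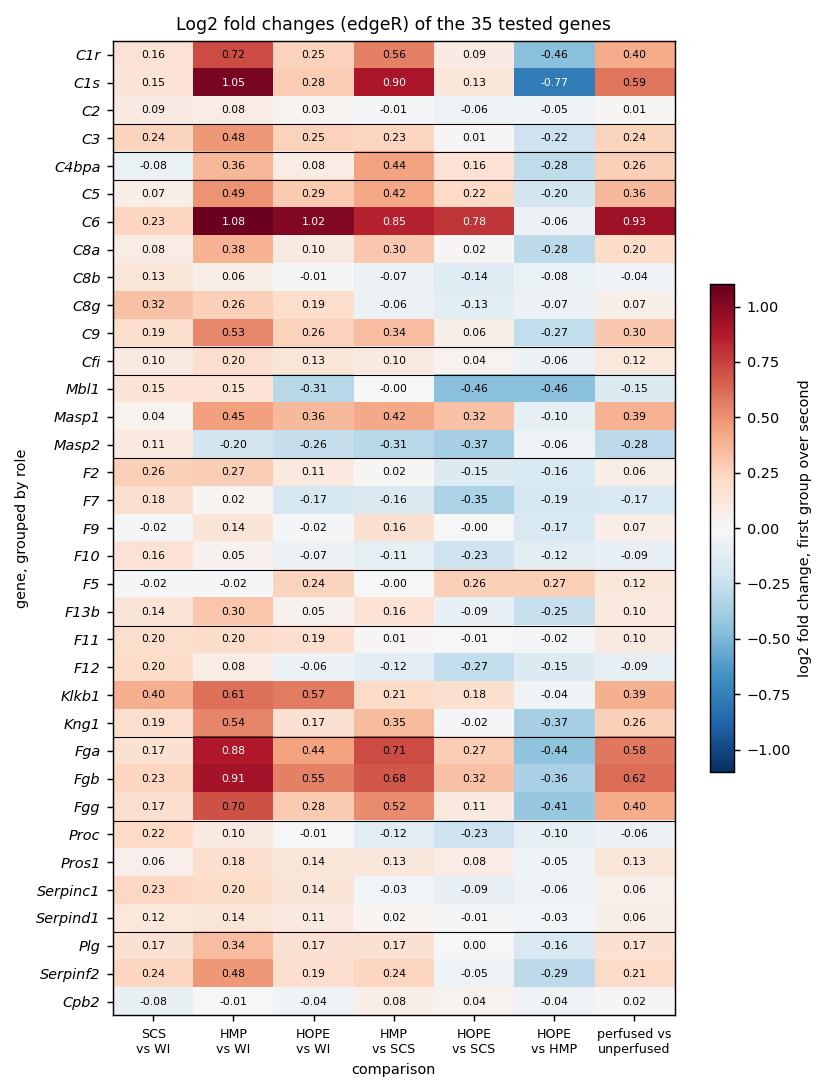
Log2 fold changes of the 35 tested genes, grouped by role, in the 7 comparisons (edgeR, the first-named group over the second, n = 3 livers per group and 6 per side for perfused against unperfused). The fibrinogen genes, C1r, C1s and C6 have the largest positive values in HMP 1 h against WI 30 min and Masp2 is negative in the 6 comparisons other than SCS 4 h against WI 30 min; 0 of the values passed the adjusted threshold.

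Fibrinogen is a hexamer of paired alpha, beta and gamma chains, encoded by Fga (chr2:182006242-182013763), Fgb (chr2:182027115-182038178) and Fgg (chr2:181987217-181994514) side by side on chromosome 2 (Rnor_6.0). Fgb, the beta chain, had 3362, 3285 and 3777 CPM after WI, 4578, 2875 and 4796 after SCS, 4633, 6557 and 8431 after HMP and 6357, 4559 and 4374 after HOPE. The WI 30 min livers lay below all 6 perfused livers, whereas SCS 4 h livers 1 and 3 lay among the HOPE 1 h livers. Its log2 fold change was 0.91 ± 0.26 (SE) in HMP 1 h against WI 30 min, 0.55 ± 0.26 in HOPE 1 h against WI 30 min, 0.23 ± 0.26 in SCS 4 h against WI 30 min and 0.62 ± 0.19 in perfused against unperfused livers (edgeR adjusted p 0.131; DESeq2 adjusted p 0.0206). Fgg, the gamma chain, had 3155, 3563 and 3545 CPM after WI, 3951, 3048 and 4582 after SCS, 4259, 5655 and 6735 after HMP and 5209, 3981 and 3309 after HOPE. HMP 1 h livers 2 and 3 and HOPE 1 h liver 1 were highest, and HOPE 1 h liver 3 lay within the WI 30 min range. Fga, named here after its values were seen as the partner of the other two, had 4049, 4525 and 4418 CPM after WI, 5217, 3805 and 5585 after SCS, 5947, 8471 and 9533 after HMP and 7426, 5197 and 4990 after HOPE. The HMP 1 h livers were all above the 6 unperfused livers, with HMP 1 h liver 1 the closest to them. In perfused against unperfused livers the log2 fold change was 0.58 ± 0.17 for Fga (edgeR adjusted p 0.122, DESeq2 adjusted p 0.0126) and 0.40 ± 0.16 for Fgg (edgeR adjusted p 0.236). Together the 3 genes took 1.17% ± 0.062 of counts after WI, 1.28% ± 0.21 after SCS, 1.91% ± 0.38 after HMP and 1.5% ± 0.31 after HOPE.

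Ratios within a library do not depend on how libraries are scaled. The ratio of Fgg to Fga in FPKM was 1.38, 1.39 and 1.42 after WI, 1.34, 1.41 and 1.45 after SCS, 1.26, 1.18 and 1.25 after HMP and 1.24, 1.35 and 1.17 after HOPE. Of the perfused livers, 5 were below all unperfused livers, and HOPE 1 h liver 2 lay just above SCS 4 h liver 1. The ratio of Fgb to Fga ranged from 0.683 to 0.832 and overlapped between all groups.

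The classical pathway is represented by the paired proteases of the C1 complex, C1r (chr4:157125998-157136829) and C1s (chr4:157143592-157155609), neighbours on chromosome 4, and by C2. C1s, which cleaves C4 and C2, had 276, 429 and 395 CPM after WI, 372, 452 and 395 after SCS, 491, 880.2 and 901 after HMP and 529, 431 and 376 after HOPE. HMP 1 h livers 2 and 3 had about the same high level, HMP 1 h liver 1 lay between them and the unperfused livers, and the HOPE 1 h livers overlapped the unperfused livers. Its log2 fold change was 1.05 ± 0.24 in HMP 1 h against WI 30 min (edgeR adjusted p 0.115), 0.90 ± 0.24 in HMP 1 h against SCS 4 h (adjusted p 0.134) and 0.59 ± 0.17 in perfused against unperfused livers. Without HMP 1 h liver 1, C1s was called in these comparisons, at 1.29, 1.15 and 0.71 on the log2 scale (edgeR adjusted p 0.0347, 0.0493 and 0.0433). Over all genes 29, 36 and 114 of 13887 were called there. C1r, which activates C1s, had 558, 631 and 604 CPM after WI, 639, 641 and 726 after SCS, 784, 1002 and 1162 after HMP and 835, 721 and 583 after HOPE. The 3 HMP 1 h livers were above all 6 unperfused livers, and HOPE 1 h liver 3 lay among the WI 30 min livers. C1r had a log2 fold change of 0.72 ± 0.17 in HMP 1 h against WI 30 min and 0.40 ± 0.12 in perfused against unperfused livers (edgeR adjusted p 0.133). The 12 livers had 33.3 to 46.6 CPM of C2, the protease of the C3 convertase, and a log2 fold change of 0.01 ± 0.10 between perfused and unperfused livers.

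In the lectin pathway the members differed in direction. Masp2 (chr5:165415136-165430054), the protease that cleaves C4 and C2 once mannose-binding lectin has bound, had 285, 273 and 258 CPM after WI, 293, 292 and 294 after SCS, 198, 255 and 256 after HMP and 248, 229 and 205 after HOPE. The SCS 4 h livers differed from each other by less than 2 CPM, and every perfused liver was below every unperfused liver, the closest being HMP 1 h liver 3 and WI 30 min liver 3. The log2 fold change was -0.28 ± 0.091 in perfused against unperfused livers (edgeR adjusted p 0.152, DESeq2 adjusted p 0.0391), -0.31 ± 0.13 in HMP 1 h against SCS 4 h and -0.37 ± 0.13 in HOPE 1 h against SCS 4 h (edgeR adjusted p 0.345, the lowest of the 35 genes there). Without the pair of livers that stood apart it was -0.19, a smaller difference. Masp1 (chr11:80736576-80803382), which activates Masp2, had 106, 106 and 120.3 CPM after WI, 95.3, 109 and 137 after SCS, 161, 138 and 156 after HMP and 155, 133 and 137 after HOPE. SCS 4 h liver 3 and HOPE 1 h liver 2 were the livers that overlapped, and all other perfused livers were above the unperfused ones. Masp1, given in full after its values were seen, had a log2 fold change of 0.39 ± 0.10 in perfused against unperfused livers (edgeR adjusted p 0.0926, DESeq2 adjusted p 0.0129) and 0.38 without the pair.

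The ratio of Masp1 to Masp2 in FPKM was 0.321, 0.334 and 0.401 after WI, 0.280, 0.322 and 0.400 after SCS, 0.700, 0.465 and 0.525 after HMP and 0.538, 0.4996 and 0.576 after HOPE. The 6 perfused livers (0.465 to 0.700) were all above the 6 unperfused livers (0.280 to 0.401), and HMP 1 h liver 1 had the highest ratio. The ratio was formed after the values were seen and is given as a description. Mbl1, a mannose-binding lectin, had 180.0, 204 and 159 CPM after WI, 208, 212 and 186 after SCS, 164, 258 and 183 after HMP and 168, 138 and 132 after HOPE. HOPE 1 h livers 2 and 3 were the lowest, HMP 1 h liver 2 was the highest, and HOPE 1 h lay below all SCS 4 h livers. Its log2 fold change was -0.46 ± 0.17 in HOPE 1 h against SCS 4 h, -0.46 ± 0.17 in HOPE 1 h against HMP 1 h and -0.31 ± 0.17 in HOPE 1 h against WI 30 min (edgeR adjusted p 0.367, 0.601 and 0.639).

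**Figure D3:**
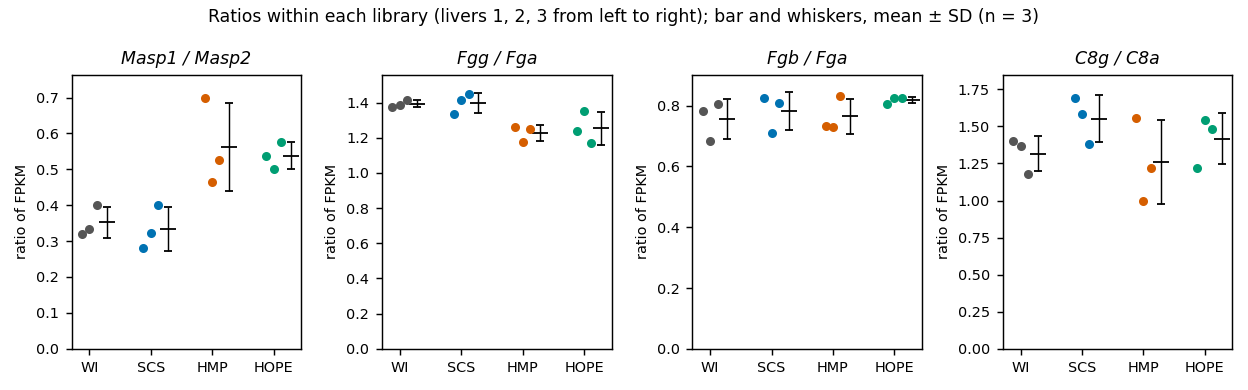
Ratios of FPKM within each library for Masp1 to Masp2, Fgg to Fga, Fgb to Fga and C8g to C8a, with 1 point per liver in the order 1, 2, 3 and the mean ± SD (n = 3) beside them. The ratio of Masp1 to Masp2 is 0.465 to 0.700 in perfused and 0.280 to 0.401 in unperfused livers, while the ratio of Fgb to Fga overlaps between all groups.

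The terminal complement genes were led by C6 (chr2:54466280-54533797), whose product joins C5b at the start of the membrane attack complex. C6 had 47.4, 46.0 and 111 CPM after WI, 95.2, 71.0 and 74.7 after SCS, 129.8, 162 and 142 after HMP and 139.6, 114 and 161 after HOPE. All perfused livers were above all unperfused livers, and WI 30 min liver 3, far above the other WI 30 min livers, came close to HOPE 1 h liver 2. The log2 fold change was 1.08 ± 0.30 in HMP 1 h against WI 30 min, 1.02 ± 0.30 in HOPE 1 h against WI 30 min, 0.85 ± 0.30 in HMP 1 h against SCS 4 h and 0.78 ± 0.30 in HOPE 1 h against SCS 4 h, and 0.23 ± 0.29 between the unperfused groups. In perfused against unperfused livers it was 0.93 ± 0.21, a 1.91-fold difference (edgeR adjusted p 0.0590). DESeq2 gave the same fold change with an adjusted p of 0.00134. Without WI 30 min liver 3, edgeR called C6 in that comparison at 1.20 (adjusted p 0.00327), in HMP 1 h against WI 30 min at 1.63 (adjusted p 0.0220) and in HOPE 1 h against WI 30 min at 1.56 (adjusted p 0.0367). Over all genes 166, 27 and 2 of 14055 were called there. As the livers did not overlap for C6 in these 3 comparisons, leaving out any 1 liver could not turn its direction.

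The other terminal genes had smaller differences. C9, which polymerizes into the pore, had 754, 690.0 and 929 CPM after WI, 769, 894 and 1051 after SCS, 785, 1270 and 1373 after HMP and 1122, 848 and 865 after HOPE. HMP 1 h livers 2 and 3 were highest and HMP 1 h liver 1 was within the range of the unperfused livers. C8g, the gamma chain of C8, had 192, 212 and 182 CPM after WI, 263, 238 and 229 after SCS, 207, 239 and 255 after HMP and 224, 239 and 206 after HOPE. The SCS 4 h livers were all above the WI 30 min livers, with a log2 fold change of 0.32 ± 0.12 that was among the 2 highest of that comparison (edgeR adjusted p 0.962, unadjusted p 0.0236). C8g overlaps Fbxw5 on the opposite strand. Between perfused and unperfused livers the log2 fold changes were 0.36 ± 0.15 for C5, 0.20 ± 0.14 for C8a, -0.04 ± 0.11 for C8b, 0.07 ± 0.087 for C8g and 0.30 ± 0.16 for C9. The chains of C8 thus did not share a value, and the ratio of C8g to C8a was 1.32 ± 0.12 after WI, 1.55 ± 0.16 after SCS, 1.26 ± 0.28 after HMP and 1.42 ± 0.17 after HOPE.

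C3, on which the pathways converge, had 8191, 9468 and 10400 CPM after WI, 10980, 10400 and 11810 after SCS, 9031, 16390 and 13590 after HMP and 12610, 10650 and 10130 after HOPE. The SCS 4 h livers were all above the WI 30 min livers, SCS 4 h liver 2 by a narrow margin, and HMP 1 h ranged from below the SCS 4 h livers to the highest value of all. Its log2 fold change was 0.24 ± 0.23 in SCS 4 h against WI 30 min and 0.24 ± 0.16 in perfused against unperfused livers. C4bpa, the alpha chain of the C4b-binding protein that limits the classical pathway, had 546, 521 and 607 CPM after WI, 518, 479 and 590.0 after SCS, 486, 802 and 863 after HMP and 697, 556 and 521 after HOPE. HMP 1 h livers 2 and 3 were again highest and HMP 1 h liver 1 was below all 3 WI 30 min livers. Cfi, the protease that inactivates C3b and C4b, had 842, 1067 and 981 CPM after WI, 935, 1032 and 1129 after SCS, 804, 1298 and 1209 after HMP and 1134, 1072 and 966 after HOPE. The groups overlapped, and the log2 fold change between perfused and unperfused livers was 0.26 ± 0.14 for C4bpa and 0.12 ± 0.13 for Cfi.

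**Figure D4:**
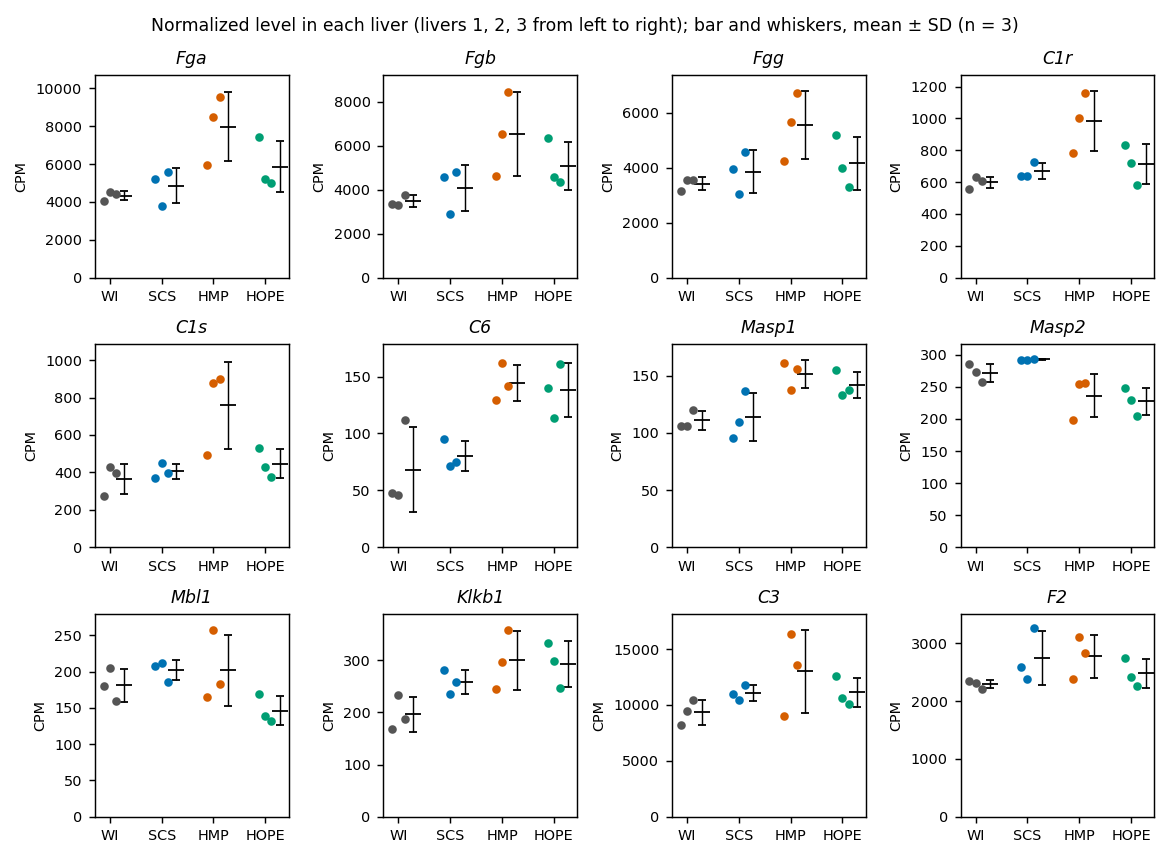
Normalized level (CPM, axes from 0) of 12 of the genes in each liver, in the order 1, 2, 3, with the mean ± SD (n = 3) beside each group. C6 is 114 to 162 CPM in perfused and 46.0 to 111 in unperfused livers, and Masp2 is lower in every perfused liver. HMP 1 h liver 1 lies below HMP 1 h livers 2 and 3 for every gene shown except Masp1, and so also for Masp2.

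The vitamin K dependent procoagulants had log2 fold changes between perfused and unperfused livers of 0.06 ± 0.12 for F2 (prothrombin), -0.17 ± 0.10 for F7, 0.07 ± 0.15 for F9 and -0.09 ± 0.10 for F10. F2 had 2357, 2317 and 2215 CPM after WI, 2594, 2382 and 3263 after SCS, 2377, 3116 and 2841 after HMP and 2754, 2414 and 2270 after HOPE. The WI 30 min livers were below all SCS 4 h and HMP 1 h livers and overlapped the HOPE 1 h livers, and SCS 4 h liver 3 was highest. F7 had 81.0, 85.7 and 68.7 CPM after WI, 92.7, 99.0 and 74.9 after SCS, 71.5, 80.2 and 86.8 after HMP and 77.5, 69.0 and 62.4 after HOPE. HOPE 1 h had the lowest mean, with a log2 fold change of -0.35 ± 0.14 against SCS 4 h (edgeR adjusted p 0.396), and the groups overlapped. In HOPE 1 h against SCS 4 h, 0 of the 4 genes were above 0.

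Among other procoagulants, F5 encodes the cofactor of the prothrombinase complex and F13b the carrier subunit of the fibrin-crosslinking factor XIII. F5 had 259.6, 270.5 and 285 CPM after WI, 238, 240.4 and 327 after SCS, 185, 287 and 331 after HMP and 322, 336 and 308 after HOPE. HMP 1 h liver 1 was the lowest of all livers, and the HOPE 1 h livers were all above the WI 30 min livers. F5 was the only one of the 35 genes with a positive value in HOPE 1 h against HMP 1 h, at 0.27 ± 0.20 (edgeR adjusted p 0.812). F13b had 205, 215 and 228 CPM after WI, 216, 226 and 273 after SCS, 204, 316 and 280.0 after HMP and 247, 232 and 192 after HOPE. Its groups overlapped, and its log2 fold change was 0.10 ± 0.12 in perfused against unperfused livers.

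In the contact and intrinsic pathway, Klkb1 encodes plasma prekallikrein, which is activated by factor XII and releases bradykinin from the kininogen encoded by Kng1. Klkb1 had 168, 234 and 187 CPM after WI, 282, 236 and 257 after SCS, 245, 296 and 357 after HMP and 332, 298 and 246 after HOPE. All livers of the other 3 groups were above the WI 30 min livers, and these 3 groups overlapped each other. The log2 fold change over WI 30 min was 0.40 ± 0.18 for SCS 4 h, 0.61 ± 0.18 for HMP 1 h and 0.57 ± 0.18 for HOPE 1 h (edgeR adjusted p 0.962, 0.182 and 0.482). F12 had 836, 827 and 839 CPM after WI, 912, 946 and 1025 after SCS, 756, 928 and 970.5 after HMP and 822, 841 and 731 after HOPE. The WI 30 min livers were nearly alike, the SCS 4 h livers were all above them and above the HOPE 1 h livers, and HOPE 1 h liver 3 was lowest. F11, the next protease of the cascade, had 200.3, 205 and 203 CPM after WI, 225, 198 and 274 after SCS, 142, 298 and 261 after HMP and 264, 234 and 195 after HOPE. HMP 1 h liver 1 was lowest and HMP 1 h liver 2 highest, so that the HMP 1 h livers spanned all others. Kng1 had a log2 fold change of 0.26 ± 0.17 between perfused and unperfused livers, F11 0.10 ± 0.16 and F12 -0.09 ± 0.095.

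The anticoagulant genes stood close to 0 in perfused against unperfused livers, at -0.06 ± 0.10 for Proc (protein C), 0.13 ± 0.13 for Pros1 (its cofactor protein S), 0.06 ± 0.12 for Serpinc1 (antithrombin) and 0.06 ± 0.13 for Serpind1 (heparin cofactor II). Serpinc1 had 1906, 1874 and 1640 CPM after WI, 2072, 2019 and 2264 after SCS, 1631, 2334 and 2266 after HMP and 2036, 2095 and 1848 after HOPE. SCS 4 h was above WI 30 min in all livers, and HMP 1 h liver 1 was the lowest of the 12. In fibrinolysis, Plg had 2900, 2943 and 2991 CPM after WI, 2964, 3054 and 3898 after SCS, 2887, 4135 and 4125 after HMP and 3849, 3148 and 2954 after HOPE. HMP 1 h livers 2 and 3 and SCS 4 h liver 3 and HOPE 1 h liver 1 were above the rest, which lay between 2887 and 3148 CPM. Cpb2, a carboxypeptidase that protects fibrin from lysis, had 499, 566 and 424 CPM after WI, 453, 392 and 560.0 after SCS, 372, 514 and 596 after HMP and 520.0, 506 and 418 after HOPE. Its groups overlapped in all comparisons, and its log2 fold change was 0.02 ± 0.14 in perfused against unperfused livers, beside 0.17 ± 0.14 for Plg and 0.21 ± 0.14 for Serpinf2, which encodes the plasmin inhibitor alpha-2-antiplasmin.

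HOPE 1 h against HMP 1 h compares perfusion with and without oxygenation of the perfusate. HMP 1 h liver 1 and HOPE 1 h liver 3, which stood apart, lie on opposite sides of it. In this comparison 34 of the 35 genes were negative (49.0% of all genes were positive), with a median of -0.164 (-0.006 over all genes). The genes varied together across livers, as given below, so these signs are not independent of each other. An effect of oxygen on these genes was not tested apart from differences between livers. The median was -0.286 without HMP 1 h liver 1, -0.072 without HMP 1 h liver 2, -0.092 without HMP 1 h liver 3 and -0.095 without HOPE 1 h liver 3, lay between these when any other single liver was left out, and was -0.244 without HMP 1 h liver 1 and HOPE 1 h liver 3. At an unadjusted p under 0.05, 0 genes were higher and 3 lower, C1s, C1r and Mbl1, beside 3.96% and 3.52% of all genes, and DESeq2 called 0 (0.139% of all genes). The groups overlapped for all 35 genes, whereas 6.22% of all genes were higher and 4.89% lower without overlap. The lowest values were -0.77 ± 0.24 for C1s (edgeR adjusted p 0.558), -0.46 ± 0.17 for C1r, -0.46 ± 0.17 for Mbl1 and -0.44 ± 0.24 for Fga, and the highest after F5 was -0.02 ± 0.23 for F11.

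The genes varied together from liver to liver. As a description over 12 livers, which share library and group effects, Pearson's r of log2 CPM was above 0 in 568 of 595 pairs, with a median of 0.595 and a middle range of 0.386 to 0.768. Plg had the highest median r with the other genes (0.817) and F7 the lowest (0.175). The highest single value was 0.977 for Fga and Fgb, with 0.975 for Fga and Fgg and 0.954 for Fgb and Fgg. C1r had an r of 0.953 with Fgg and 0.940 with C1s, its neighbour 6762 bases away. The lowest value was -0.660 for Masp1 and Masp2, and C6 had an r of -0.646 with Masp2. Other neighbouring pairs had an r of 0.802 (F7 and F10, 1394 bases apart), 0.752 (C8a and C8b) and 0.550 (F11 and Klkb1). A mean score of the 15 complement genes and one of the 20 coagulation and fibrinolysis genes had an r of 0.917.

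The score of all 35 genes (mean centred log2 CPM) was -0.230, -0.116 and -0.133 after WI, -0.0510, -0.106 and 0.122 after SCS, -0.173, 0.324 and 0.366 after HMP and 0.185, -0.0300 and -0.156 after HOPE. HMP 1 h livers 2 and 3 and HOPE 1 h liver 1 were the highest, and the spread within groups was 0.185. In bulk tissue a lower share of hepatocytes and less mRNA per hepatocyte cannot be told apart. Over the 12 livers the score had an r of 0.738 with the hepatocyte marker score and -0.392 with the non-parenchymal score.

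**Figure D5:**
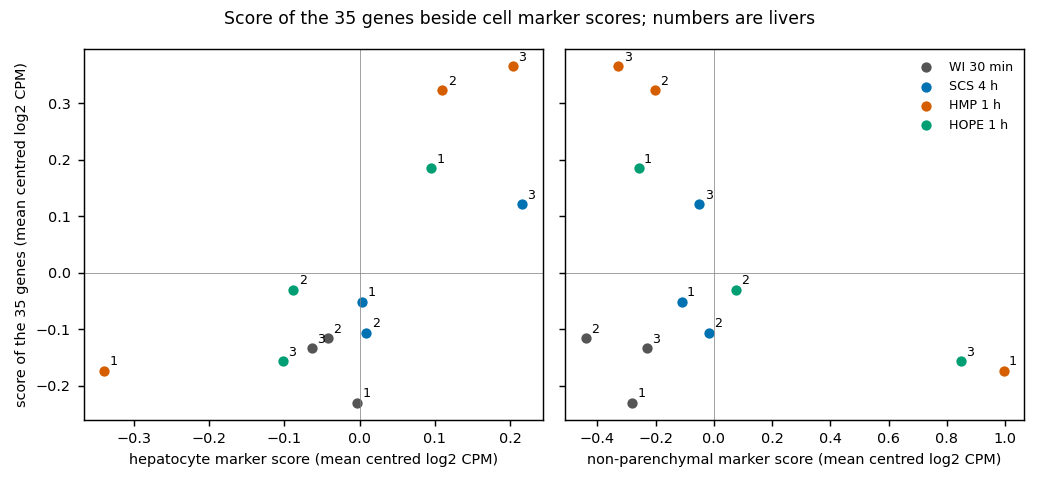
Score of the 35 genes in each liver (vertical axis, mean centred log2 CPM) beside the hepatocyte marker score and the non-parenchymal marker score (horizontal axes, same unit), with the liver number beside each point. HMP 1 h liver 1 and HOPE 1 h liver 3 have the highest non-parenchymal scores (0.995 and 0.849) and member scores below 0.

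Markers of other cells were high in HMP 1 h liver 1 and HOPE 1 h liver 3. In perfused against unperfused livers 12 of 13 Kupffer cell and macrophage markers were above 0 (median log2 fold change 0.604). So were 15 of 15 sinusoidal endothelial (0.529), 12 of 13 stellate cell (0.422) and 7 of 8 bile duct markers (0.679). Of hepatocyte markers 11 of 19 were above 0 (0.023), and of platelet and erythroid markers 2 of 7 (-0.575), with 0 called in each list. The last list was mixed: platelet genes Pf4 (0.99) and Itga2b (0.34) were above 0. The erythroid genes Hba-a1, Hba-a2, Hbb, Hbb-b1 and Alas2 were below 0 (-0.81 to -0.42). Against WI 30 min the median of this list was -1.299 in HOPE 1 h, -1.554 in HMP 1 h and -1.744 in SCS 4 h. Against SCS 4 h, 7 of 7 were above 0 both in HOPE 1 h (0.371) and in HMP 1 h (0.172). The comparison of perfused with unperfused livers was also made without HMP 1 h liver 1 and HOPE 1 h liver 3, an alternative added after seeing the data. There 8 of 13 Kupffer cell and macrophage markers were above 0 (median 0.104). So were 12 of 15 sinusoidal endothelial (0.094), 8 of 13 stellate cell (0.049), 4 of 7 bile duct (0.006) and 14 of 19 hepatocyte markers (0.105). Of platelet and erythroid markers 1 of 7 was above 0 (-1.079). Non-parenchymal scores were -0.328 to 0.075 in the other 4 perfused livers and -0.440 to -0.018 in the 6 unperfused livers, so that these livers overlapped. The summed level of Kupffer cell markers was 572 to 672 CPM after WI, 744 to 845 after SCS, 669.7 to 1866 after HMP and 618 to 1247 after HOPE. Sinusoidal endothelial markers summed to 735 to 793, 793 to 1064, 835 to 1646 and 772 to 1896 CPM, and stellate cell markers to 688 to 989, 811 to 1191, 819 to 2284 and 1051 to 1594 CPM. No tested list had a marker at 0 in all livers. Without this pair, the log2 fold change in perfused against unperfused livers was 0.77 for C1s, 0.54 for C1r, 0.72 for Fga, 0.77 for Fgb, 0.52 for Klkb1, 0.91 for C6, 0.38 for Masp1 and -0.19 for Masp2, against 0.59, 0.40, 0.58, 0.62, 0.39, 0.93, 0.39 and -0.28 with all livers. The part of other cell types in these differences was not tested.

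Other genes of the same systems were read from lists, of which 0 genes were called in the 6 pairs of groups. Of 29 other complement genes tested, 25 were above 0 in perfused against unperfused livers, with a median of 0.409 and 0 called. The lowest unadjusted p-values were those of Itgb2, the common chain of the leukocyte complement receptors (0.81 ± 0.27, edgeR adjusted p 0.167), and Colec10, a collectin of the lectin pathway (0.70 ± 0.25, adjusted p 0.187). Of 31 other coagulation and fibrinolysis genes, 22 were above 0 with a median of 0.372 and 0 called, led by Gas6, a vitamin K dependent ligand (0.83 ± 0.20, edgeR adjusted p 0.0711), and Vwf, the endothelial von Willebrand factor (1.15 ± 0.30, adjusted p 0.0917), while Serpinb2 had no count in any liver. Without HMP 1 h liver 1 and HOPE 1 h liver 3, in which macrophage and endothelial markers were also high, 19 of 28 other complement genes were above 0 with a median of 0.111, and 18 of 31 other coagulation and fibrinolysis genes with a median of 0.028. The lists share genes with the marker lists. C1qa, C1qb, C1qc and Vsig4 are also among the Kupffer cell and macrophage markers, and Vwf among the sinusoidal endothelial markers. Serpina1, Apoh and Vtn are also among the hepatocyte markers. A shared movement of lists and markers is therefore partly given by their make-up. The part of macrophages and endothelial cells in the lists was not tested.

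Among 25 tested genes of interleukin-6 type acute-phase signalling, 18 were above 0 (median 0.196) and 0 were called. Cp, which encodes ceruloplasmin, had 0.54 ± 0.20 (edgeR adjusted p 0.189) and Itih4 0.36 ± 0.14 (adjusted p 0.210), and Il6 and Tnf had no count in any liver. Of 19 hepatocyte transcription factors, 10 were above 0 (median 0.031) and 0 were called. Creb3l3, a liver membrane-bound factor that acts on acute-phase and lipid genes, had -0.37 ± 0.097 (edgeR adjusted p 0.0926) and Gata6 0.34 ± 0.15 (adjusted p 0.261). Of 24 genes of the secretory pathway that folds and exports plasma proteins, 3 were above 0 (median -0.140), and 9 without the same pair of livers (median -0.069). Calr, the chaperone calreticulin, was called lower, at -0.57 ± 0.12 (edgeR adjusted p 0.0475), from 768 ± 145 CPM in unperfused to 516 ± 62.4 CPM in perfused livers (mean ± SD, n = 6). The call was lost when any 1 liver other than HMP 1 h liver 3 was left out (edgeR adjusted p 0.0558 to 0.137), without the pair (0.0991) and with the replicate block (0.0687). The next lowest p was that of Hspa5 (-0.47 ± 0.14, adjusted p 0.125).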

How the data were processed

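Per the authors' methods, paired-end reads of liver RNA were aligned with Hisat2 and transcripts were assembled with StringTie. The submitters' processing notes name Rnor_6.0. The sources used here do not state the counting tool or its use of strand. The authors deposited raw counts per gene and FPKM per liver in 1 table, whose 24 columns of such values were all matched to livers by name (0 unmatched). The authors' columns of group means, log2 fold changes, p-values and adjusted p-values per pair of groups were not used.

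One row per symbol was taken, that with the highest summed count. All 12 livers (3 per group) entered 1 edgeR 4.0.16 quasi-likelihood model (R 4.3.3) with a mean per group, TMM normalization and filterByExpr, which kept 13687 genes. Fold changes are per group mean, SE is the log2 fold change over the square root of F, and adjusted p-values are Benjamini-Hochberg over all tested genes. CPM are TMM-normalized, and log2 CPM used a prior count of 2. FPKM served only for levels and ratios. The pipeline was tested on simulated data. The labels give a group and a number, and each library was taken as a separate liver. The p-values set a difference between groups against the spread between these samples, which the model estimates with information shared over genes. Counting intervals were not needed for replicated values.

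The genes and lists were chosen with earlier results of these data known. Values per liver are given for called genes, for the gene of each role with the highest mean FPKM and for the 2 highest and 2 lowest fold changes of each comparison. Of other lists, called genes and otherwise the 2 with the lowest p in perfused against unperfused livers are named. Fga and Masp1 were added after their values were seen. As alternatives, the tests were rerun with DESeq2 1.42.0, with RLE size factors, without the filter, with only the livers compared, with a block for the replicate number, without mitochondrial counts, with summed rows per symbol, leaving out each liver, and leaving out HMP 1 h liver 1 and HOPE 1 h liver 3 together.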

Additional observations from a re-analysis of the deposited data

How the results depend on the processing

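The number of the 35 genes called was 0 in the 7 comparisons and stayed 0 under RLE normalization, only the groups compared, removal of mitochondrial counts and summed rows. DESeq2 called 5 in HMP 1 h against WI 30 min, 3 in HMP 1 h against SCS 4 h and 7 in perfused against unperfused livers. Without a filter on low counts 1 (C6) was called in perfused against unperfused livers, beside 197 of all 20213 genes. Without HMP 1 h liver 1 and HOPE 1 h liver 3, 2 were called in HMP 1 h against WI 30 min (C1r and C1s) and 1 in perfused against unperfused livers (C1s). Over all genes 46 and 61 of 13733 were called there. With each liver left out in turn the number was 0 to 1 in HMP 1 h against WI 30 min, HOPE 1 h against WI 30 min, HMP 1 h against SCS 4 h and perfused against unperfused livers (C6 without WI 30 min liver 3, C1s without HMP 1 h liver 1), and 0 to 0 elsewhere. The cause was not tested. Of single genes, the log2 fold change of F5 in HMP 1 h against WI 30 min was -0.02 in all livers, 0.196 without HMP 1 h liver 1, alone or with HOPE 1 h liver 3, and -0.203 to 0.196 with each liver left out. Masp1 in SCS 4 h against WI 30 min was -0.116 to 0.15 (lowest without SCS 4 h liver 3), and Mbl1 in HMP 1 h against WI 30 min was -0.064 to 0.288 (lowest without HMP 1 h liver 2). No other gene value turned its direction by more than its error.

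Over all genes, 140 were called in perfused against unperfused livers, 757 with DESeq2, 66 with the replicate block, 61 without the pair of livers and 0 to 166 with 1 liver left out. In the 6 pairs of groups, where edgeR called 0, DESeq2 called 15 to 433, edgeR without a filter 0 to 19, and edgeR without the pair of livers 0 to 46, with 1 liver left out 0 to 36, with only the livers compared 0 to 5 and with the replicate block 0 to 1. The replicate numbers were entered as a block because groups share them. With this replicate block 0 of the 35 genes were called in each comparison. The deviations of samples of the same number had r of -0.189 to 0.143 over 18 pairs (1 above 0.1). Pairs of samples with different numbers had r of -0.225 to 0.329. These ranges cannot decide whether samples of the same number share more than a number, since each group mean rests on few livers. Counting depth is not a limit for the 35 genes, but Cfb (22 counts) was below the filter.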

Other observations

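A row described as similar to mannose-binding protein C (LOC100911854, chr1:248723397-248729962, Rnor_6.0) was named after its values were seen. It had 449 counts in SCS 4 h liver 2 and 25 to 166 in the other 11 livers, or 27.0 CPM against 1.31 to 9.36. No match of this row to Mbl2 was made.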
